A study of Ovis aries with 10 samples.

Results

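A group of 62 pituitary genes, out of 17866 listed, stood lower in every feed-restricted ewe than in every normally fed ewe after scaling of the libraries, by at least 1 on the log2 scale in the mean and outside the 200 most abundant genes. RNA was sequenced from the pituitary glands of 10 pregnant Hu ewes (wild type by their labels, late gestation, labelled day 115 of gestation), 5 in the TR group on restricted feeding and 5 in the CON group on normal feeding, with 1 library per ewe. The label marks the day on which the restriction began by the study's methods, and the glands were taken later in gestation, after the restriction had run. All were multiparous ewes carrying several lambs, and the 5 of each group were a random choice from a larger feeding trial, so each library is a separate animal. The number of lambs, the parity and the cell make-up of the gland are not known for single libraries. The values are FPKM, which set the fragments of a gene against the length of its exon model and the mapped fragments in that library.

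The members were chosen by a rule that reads the comparison of the TR and CON groups itself. Each library was divided by a median-of-ratios size factor, which is the median, over 9792 genes above 1 FPKM in all 10 libraries, of the ratio to the geometric mean of the gene. The result is called scaled FPKM here. Genes with at least 0.1 deposited FPKM in 5 or more libraries were kept (14884 genes). A member had its highest TR value below its lowest CON value, and a mean log2(scaled FPKM + 0.1) lower in the TR group by at least 1. The 200 genes of highest mean deposited FPKM were left out, which removed 1 gene that met the other conditions. Because the rule used this comparison, the differences below describe the members, and no p-value is given for them.

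The pituitary gland joins the brain to the endocrine system. Its anterior lobe holds separate cell types that make growth hormone, prolactin, the gonadotropins, thyroid stimulating hormone and adrenocorticotropic hormone, and its posterior lobe holds the nerve endings that release vasopressin and oxytocin. In sheep, underfeeding is known to slow the pulses of luteinizing hormone and to raise circulating growth hormone, so the gland is a tissue in which feeding and reproduction meet. The deposited tables give genes under numbered IDs and do not pair them with symbols. None of the IDs (0 of 17866) was found in the table of 35057 sheep genes used to look up names, so the roles of the members, the markers of the cell types and the promoter sequences are not given here. Only 2 members are named by ID, the one with the widest gap between the groups and the one of highest mean level, and the others are given by their rank.

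The libraries differed within the feeding groups, most of all within the CON group. Along axis 1 of a principal component analysis of the other 14822 genes, which held 59.1% of the variance, the TR ewes scored -82.4 to 1.54. CON1 and CON4 scored -27.1 and -42.1, inside that range, whereas CON2, CON5 and CON3 stood apart at 111.8, 100.9 and 54.3. The size factors were 0.985 to 1.18 in the TR group and 0.831 to 1.07 in the CON group, and the means differed by 0.19 on the log2 scale (p = 0.071, exact permutation test, two-sided, n = 5 each), which did not reach the threshold of 0.05. Reads per gene are not held by FPKM, so the depth of each library is unknown and no counting interval is given.

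Without overlap and lower in the TR group were 347 of the 14884 genes (2.33%), and 63 of these differed by at least 1 on the log2 scale (0.423%), of which 62 were the members. In the opposite direction 475 genes had no overlap (3.19%), and 122 of them were higher by at least 1 (0.820%). A limma fit over all 14884 genes on the same values called 1 gene at an adjusted p under 0.05 (Benjamini-Hochberg), a gene higher in the TR group. No gene was called lower (0%), while 2232 genes were lower at an unadjusted p under 0.05 (15.0%) and 2633 were higher. The count of genes called lower was 1581 without CON4, 2104 with array weights and 1766 with the replicate number as a block. On deposited FPKM without size factors the counts at an unadjusted p were 1369 lower and 3555 higher. The members were thus chosen for lack of overlap, not by a test over the whole table.

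The members were lower in the TR group, with a log2(scaled FPKM + 0.1) difference of -1.299 (median of 62, range -3.14 to -1.0004), while the median of all genes tested was 0.05. The mean scaled FPKM of the CON group was a median of 2.76 times that of the TR group. Of the 62, 36 were lower by at least 1.2, 21 by at least 1.5 and 7 by at least 2. Each ewe gave 1 piece of bulk tissue, in which fewer cells of a type and less RNA per cell cannot be told apart.

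**Figure D1:**
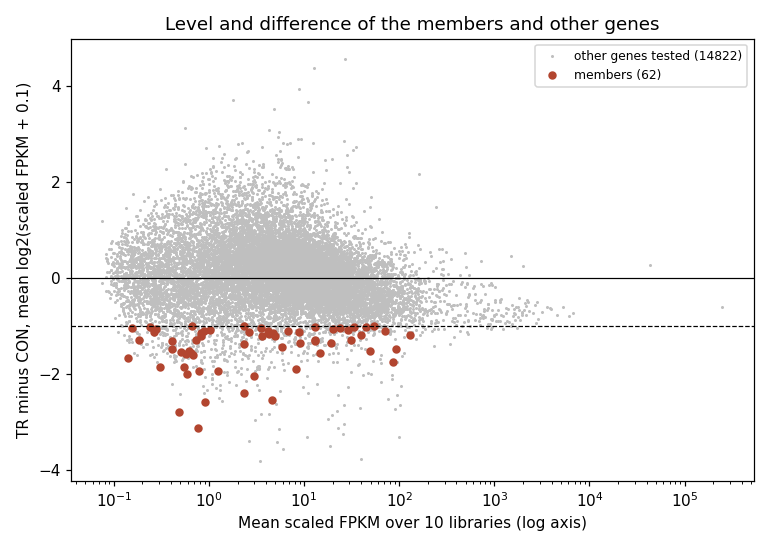
Mean scaled FPKM of each gene over the 10 libraries (log axis) against the TR minus CON difference in mean log2(scaled FPKM + 0.1), for the 62 members (large points) and the other 14822 genes tested (small points), with a dashed line at -1. The members run from 0.141 to 130.7 scaled FPKM, and those with differences below -2 are all under 10 scaled FPKM.

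Members were found at every level of expression outside the most abundant genes. Their mean scaled FPKM ran from 0.141 to 130.7, with a median of 2.80, against a median of 5.74 over all genes tested. A mean under 1 was held by 25 members (40.3%, against 18.2% of all genes tested), 1 to 10 by 19 (30.6%, against 46.1%) and over 10 by 18 (29.0%, against 35.7%). The differences were wider in the low members, with a median of -1.53 under 1 scaled FPKM, -1.21 from 1 to 10 and -1.19 over 10. Among the 18 members over 10, the CON mean was 2.06 to 3.66 times the TR mean.

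The filter on low values was passed partly through the CON group. All 62 members reached 0.1 deposited FPKM in all 5 CON ewes, and 45 also did so in all 5 TR ewes. At least 1 TR ewe fell short in the remaining members, and 1 member reached 0.1 in no TR ewe, so for these the filter favoured genes that are high in the CON group. A value of 0 was listed in at least 1 TR ewe for 10 members, of which 9 had a mean under 1 scaled FPKM. Over all genes tested, 431 of 14884 were listed at 0 in at least 1 TR ewe. No member was listed at 0 in a CON ewe, which the rule itself ensures.

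**Figure D2:**
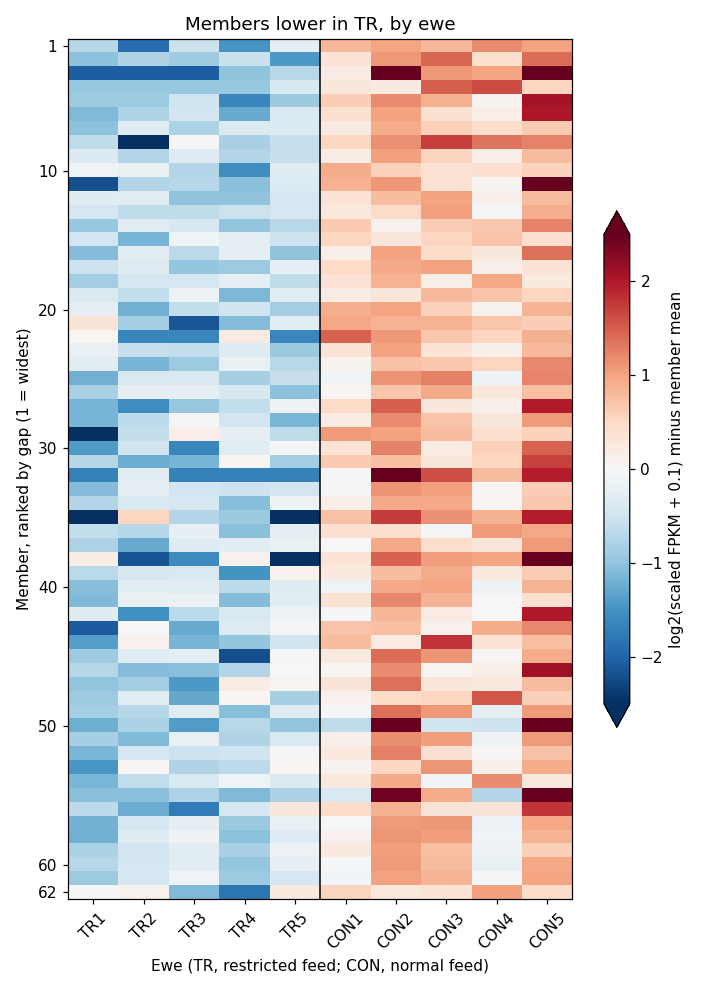
Heat map of the 62 members (rows, ranked from the widest gap at the top) in the 10 ewes (columns, TR1 to TR5 left of the line and CON1 to CON5 right of it), coloured by log2(scaled FPKM + 0.1) minus the mean of the member. Every row is lower in each TR ewe than in each CON ewe, as the rule requires, and CON1 and CON4 are the lowest pair of CON ewes in 34 of the 62 rows.

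The gap between the groups was taken as the lowest CON value minus the highest TR value on the log2(scaled FPKM + 0.1) scale. It was narrow in most members, with a median of 0.23 and a range of 0.02 to 1.07. It was over 0.5 in 8 members, over 0.2 in 33 and under 0.1 in 19. The 25 members under 1 scaled FPKM had a median gap of 0.28, and the 18 members over 10 had a median gap of 0.07.

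The widest gap was that of gene23175. It had 0.564, 0.185, 0.635, 0.287 and 0.807 scaled FPKM in TR1 to TR5, against 1.82, 2.03, 1.80, 2.32 and 2.05 scaled FPKM in CON1 to CON5. The CON ewes were close to each other, whereas the TR ewes were spread, with TR2 and TR4 lowest. The mean of the TR ewes was 0.496 ± 0.256 scaled FPKM and that of the CON ewes 2.003 ± 0.211 scaled FPKM (SD over 5 ewes each), which is a log2 difference of -1.94. With a pseudocount of 1 the difference was -1.02, since its values lie close to that pseudocount.

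The members with the next widest gaps were also of low level. The member at gap rank 2 had 0.152, 0.206, 0.175, 0.246 and 0.0881 scaled FPKM in TR1 to TR5, against 0.551, 0.987, 1.28, 0.580 and 1.25 in CON1 to CON5. All TR ewes were low, and CON1 and CON4 were the lowest of the CON ewes. The member at gap rank 3, which had the widest log2 difference of the 62 (-3.14), was listed at 0 in TR1, TR2 and TR3 and had 0.107 and 0.158 scaled FPKM in TR4 and TR5. Its CON values were 0.378, 2.40, 0.781, 0.725 and 3.17 in CON1 to CON5, so CON2 and CON5 were the highest ewes and the other CON ewes were much nearer to the TR group.

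The member at gap rank 4 had the lowest mean level of the 62. It was listed at 0 in TR1 to TR4 and at 0.0453 scaled FPKM in TR5, against 0.135, 0.126, 0.438, 0.491 and 0.177 in CON1 to CON5. Here CON3 and CON4 were the highest ewes, and the other CON ewes lay between them and TR5. The member at gap rank 5 had 0.250, 0.250, 0.364, 0.112 and 0.246 scaled FPKM in TR1 to TR5, against 0.897, 1.37, 1.11, 0.594 and 2.68 in CON1 to CON5. In this member CON5 was the highest ewe and CON4 the nearest to the TR group.

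Gap ranks 6 to 8 completed the members with a gap over 0.5. The member at rank 6 had 0.144, 0.205, 0.274, 0.119 and 0.308 scaled FPKM in TR1 to TR5, against 0.588, 0.953, 0.584, 0.488 and 2.04 in CON1 to CON5, with CON5 again apart from the other CON ewes. The member at rank 7 had 1.13, 1.94, 1.35, 1.85 and 1.88 scaled FPKM in TR1 to TR5, against 2.82, 4.65, 3.68, 3.29 and 3.86 in CON1 to CON5, and both groups were tight. The member at rank 8 had 0.954, 0, 1.57, 0.827 and 0.995 scaled FPKM in TR1 to TR5, against 2.27, 3.48, 5.32, 3.995 and 3.77 in CON1 to CON5. Here the value of 0 in TR2 widened the log2 difference to -2.40.

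**Figure D3:**
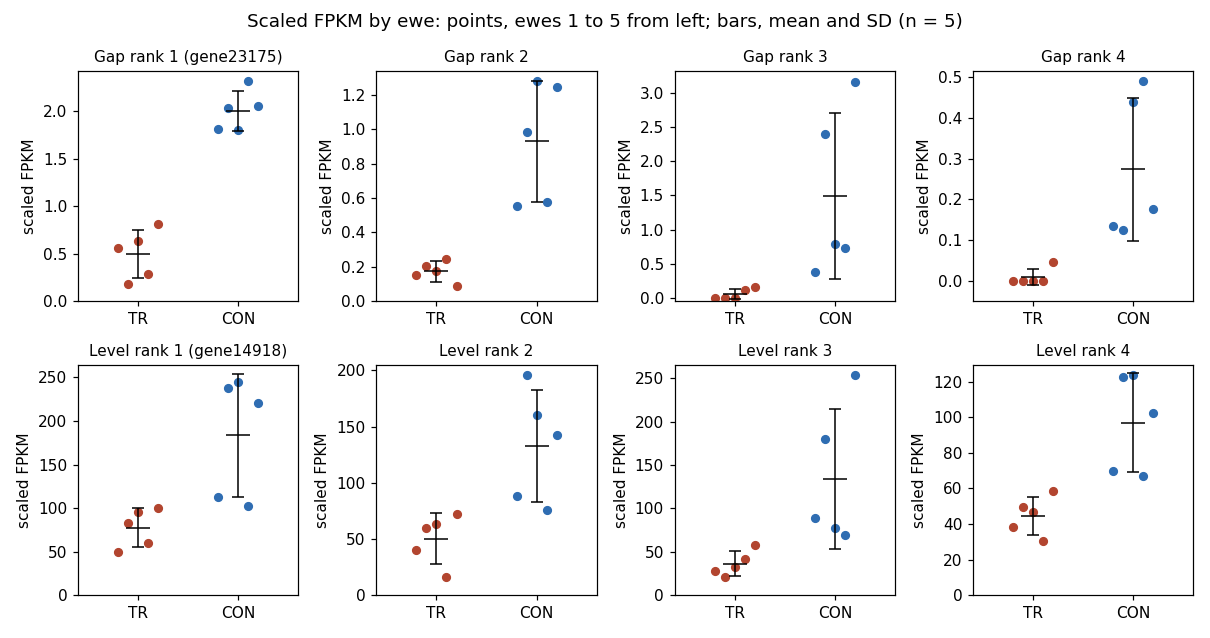
Scaled FPKM of 8 members by ewe (points, ewes 1 to 5 from left to right within each group; TR left, CON right) with the mean and SD of each group (n = 5), for the 4 widest gaps (upper row) and the 4 highest mean levels (lower row). gene23175 has TR values of 0.185 to 0.807 below CON values of 1.80 to 2.32, whereas gene14918 has TR5 at 100.5, close to CON4 and CON1 at 102.1 and 112.5.

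The most abundant member was gene14918. It had 49.8, 83.3, 95.4, 59.9 and 100.5 scaled FPKM in TR1 to TR5, against 112.5, 237.9, 245.3, 102.1 and 220.5 scaled FPKM in CON1 to CON5. The groups did not overlap, but TR5 and CON4 were nearly equal, and CON2, CON3 and CON5 stood well above CON1 and CON4. The mean of the TR ewes was 77.8 ± 22.1 scaled FPKM and that of the CON ewes 183.6 ± 70.4 scaled FPKM (SD over 5 ewes each), which is a log2 difference of -1.19. Against CON1 and CON4 alone the difference was -0.52. It was -0.80 with quantile normalization, -0.997 on deposited FPKM and -0.967 with size factors from genes above 10 FPKM, each of which is short of the threshold of the rule.

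The other abundant members held the same order of ewes in part. The member at level rank 2 had 40.0, 59.6, 63.8, 16.1 and 72.1 scaled FPKM in TR1 to TR5, against 88.7, 195.6, 160.2, 75.9 and 142.5 in CON1 to CON5, with TR4 lowest and CON1 and CON4 nearest to the TR group. The member at level rank 3 had 28.2, 21.7, 33.0, 41.7 and 58.5 scaled FPKM in TR1 to TR5, against 89.1, 180.4, 77.5, 69.9 and 253.4 in CON1 to CON5. In this member CON2 and CON5 were high and CON3 stood with CON1 and CON4, and its log2 difference of -1.76 was the widest among the 18 members over 10 scaled FPKM.

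At level rank 4 the values were 38.4, 49.4, 46.8, 30.4 and 58.5 scaled FPKM in TR1 to TR5, against 69.6, 122.7, 123.4, 66.9 and 102.4 in CON1 to CON5. At level rank 5 they were 28.4, 35.4, 40.4, 28.2 and 44.5 scaled FPKM in TR1 to TR5, against 58.7, 101.8, 83.8, 45.2 and 74.5 in CON1 to CON5. In both, TR1 and TR4 were the lowest and TR5 the highest of the TR ewes, and CON1 and CON4 were the lowest of the CON ewes.

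Besides gap ranks 3 and 8, the members with the 5 widest log2 differences included 3 with narrower gaps. The member at difference rank 2 (-2.79) was listed at 0 in all TR ewes except TR2, at 0.168 scaled FPKM, against 0.212, 1.93, 0.877, 0.457 and 1.15 in CON1 to CON5. TR2 thus came close to CON1, and the other CON ewes lay well above. The member at difference rank 3 (-2.59) had 0, 0.833, 0.285, 0.236 and 0 scaled FPKM in TR1 to TR5, against 0.965, 2.04, 1.31, 1.08 and 2.41 in CON1 to CON5, with TR2 again nearest to the CON group. The member at difference rank 4 (-2.54) had 3.07, 0.523, 0.822, 2.91 and 0.281 scaled FPKM in TR1 to TR5, against 3.43, 7.62, 5.67, 5.45 and 15.9 in CON1 to CON5, where TR1 and TR4 were the high TR ewes.

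The members differed in how alike the ewes of a group were. On the log2(scaled FPKM + 0.1) scale the difference between the highest and lowest CON ewe was under 1 in 19 members and over 2 in 9, and that between the highest and lowest TR ewe was under 1 in 29 and over 2 in 9. The within-group SD had a median of 0.41 in the TR group and 0.50 in the CON group over the members, and of 0.32 in the TR group and 0.44 in the CON group over all genes tested. The SD was larger in the CON group in 37 of the 62 members (59.7%), in 70.5% of all genes tested and in 78.7% of the 122 genes that were higher in the TR group by the mirrored rule.

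The extremes of this range were 2 members in which CON2 and CON5 stood far above the other CON ewes. The member with the widest CON range had 0.402, 0.577, 0.346, 0.629 and 0.492 scaled FPKM in TR1 to TR5, against 0.658, 9.69, 0.739, 0.722 and 15.2 in CON1 to CON5. The member with the next widest range had 2.25, 2.25, 2.77, 2.16 and 2.73 scaled FPKM in TR1 to TR5, against 3.67, 26.1, 9.19, 2.84 and 27.8 in CON1 to CON5. In both members the TR ewes were alike, and CON1 and CON4 were only slightly above them. Against CON1 and CON4 alone their log2 differences were -0.45 and -0.41, against -2.05 and -1.91 with all CON ewes.

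At the other end, the member with the narrowest CON range had 0.707, 0.259, 0.0473, 0.208 and 0.444 scaled FPKM in TR1 to TR5, against 1.16, 1.09, 1.09, 0.949 and 0.899 in CON1 to CON5, so that spread TR ewes lay below CON ewes that were alike. The member with the next narrowest was gene23175. In both of these the difference against CON1 and CON4 alone (-1.65 and -1.99) was at least as wide as with all 5 CON ewes (-1.60 and -1.94).

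The border between the groups was most often formed by TR5 and TR3 on one side and CON4 and CON1 on the other. The highest TR value was held by TR5 in 21 members and by TR3 in 17, followed by TR4 in 10, TR2 in 8 and TR1 in 6. The lowest CON value was held by CON4 in 27 members and by CON1 in 21, followed by CON3 in 8, CON2 in 5 and CON5 in 1. CON1 and CON4 were the lowest pair of CON ewes in 34 of the 62 members (54.8%), against 27.1% of all genes tested. By level, they were so in 9 of 25 members under 1 scaled FPKM (18.0% of all genes tested at that level), 13 of 19 from 1 to 10 (17.6%) and 12 of 18 over 10 (44.0%). All genes tested include those higher in the TR group, whereas the rule keeps only lower ones. CON1 and CON4 lay within the TR range on axis 1, so the direction of the rule can itself favour this pair. The share among genes lower in the TR group was not taken.

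**Figure D4:**
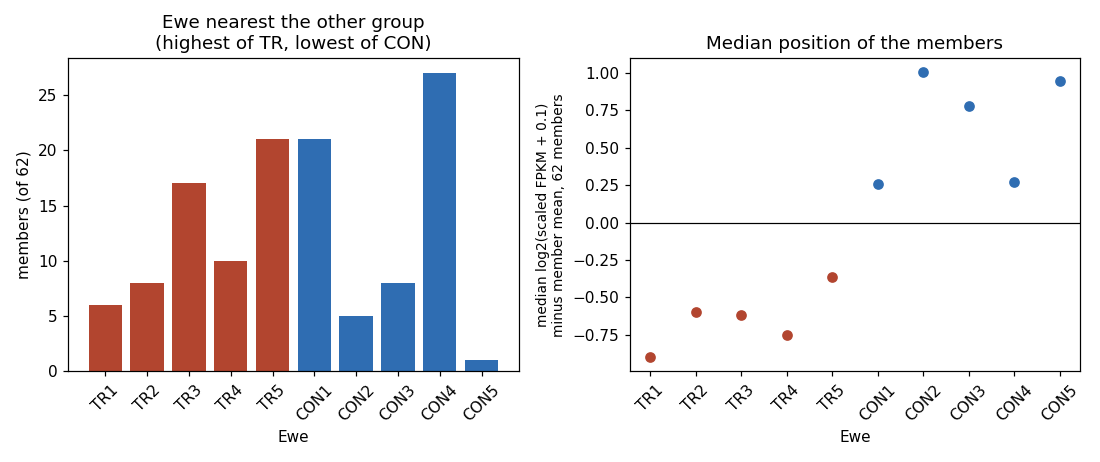
Left, the number of the 62 members in which each ewe was nearest to the other group, as the highest of the TR ewes (TR1 to TR5) or the lowest of the CON ewes (CON1 to CON5). Right, the median over the 62 members of log2(scaled FPKM + 0.1) minus the mean of the member, which is -0.90 to -0.37 in TR ewes, 0.26 and 0.27 in CON1 and CON4, and 0.78 to 1.00 in CON2, CON3 and CON5.

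Summed over the 62 members, scaled FPKM was 395.1, 506.6, 544.9, 401.2 and 642.8 in TR1 to TR5, against 863.0, 1611, 1372, 771.9 and 1628 in CON1 to CON5. TR1 and TR4 had the lowest sums and CON2 and CON5 the highest, and these were also the ewes at the lower and upper ends of axis 1 of the other genes (-82.4, -60.5, 111.8 and 100.9). As a share of all deposited FPKM the members took 0.0719 to 0.104% in the TR group and 0.126 to 0.182% in the CON group. The rule did not read the order of the ewes within a group, but its direction can favour an order. The part of axis 1 in the difference between the groups was not tested.

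The median difference was narrower without CON2, CON3 and CON5, the CON ewes in which the members stood highest at the median. Leaving out high CON ewes tends to narrow such a difference, and it did not narrow in every member, as gene23175 shows. With those 3 libraries left out and the size factors recomputed, the TR group was lower in all 62 members and without overlap in 59. The rule required every TR value below every CON value, so only the recomputed size factors could change these counts. They are no check on the members. The difference was at least 1 on the log2 scale in 29 members, with a median of -0.96 over the 62. By level, 19 of the 25 members under 1 scaled FPKM still differed by at least 1, with 4 of 19 from 1 to 10 and 6 of 18 over 10. Without CON2 and CON5, 38 of the 62 still differed by at least 1, and without CON1 and CON4 58 did, with a median of -1.53.

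**Figure D5:**
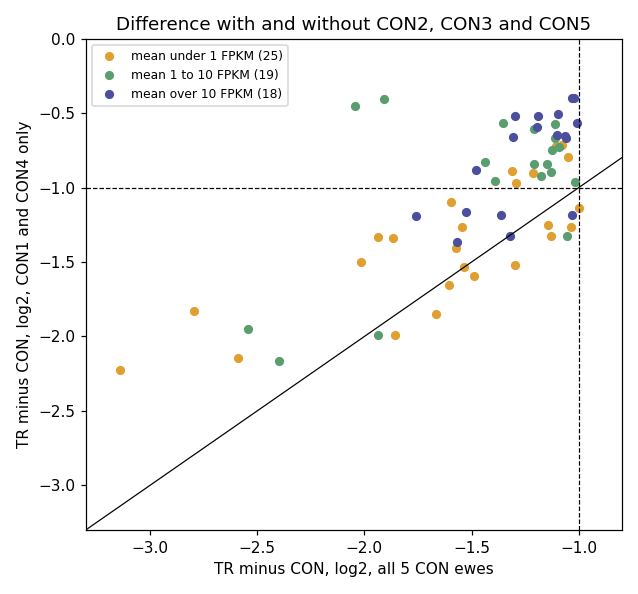
Log2 difference of each member with all 5 CON ewes (horizontal axis) and with CON1 and CON4 only (vertical axis), coloured by mean scaled FPKM, with the line of equality and dashed lines at -1. Most members over 10 scaled FPKM lie above the horizontal dashed line (median -0.65), and most of those under 1 lie below it (median -1.33). Of the 25 under 1, 9 were listed at 0 in at least 1 TR ewe, and the filter on low values was passed partly through the CON group.

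The threshold cut through a dense range of genes. The members nearest to it had differences of -1.0004, -1.01 and -1.02, and the nearest genes without overlap outside it had -0.9997, -0.995 and -0.991. The smallest gap of a member was between 3.70 scaled FPKM (highest TR) and 3.75 (lowest CON). The nearest gene with overlap had 7.54 (highest TR) and 7.53 (lowest CON), with a difference of -1.24. Outside the 200 most abundant genes, another 278 genes were lower without overlap by less than 1, and 640 were lower by at least 1 with overlap.

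Before scaling, the groups overlapped in part of the members. On deposited FPKM 48 of the 62 had no overlap (218 of all genes tested, 1.46%), and the other 14 comprised 7 of 25 under 1 scaled FPKM, 4 of 19 from 1 to 10 and 3 of 18 over 10. The median difference of all genes tested was 0.23 on deposited FPKM and 0.26 with size factors from genes above 10 FPKM, against 0.05 with the size factors used. Relative to that median, the members lay at -1.35 in all 3 cases. Other size factors shift nearly all genes by the same amount on the log2 scale, so this likeness is no check on the members. The number of genes that met the rule was 28 on deposited FPKM, 25 with size factors from genes above 10 FPKM, 25 with a pseudocount of 1 and 91 with quantile normalization, and 51 of these 91 were members.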

How the data were processed

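Pituitary libraries of 10 ewes were grouped by the sample labels (5 TR, 5 CON). After trimming, the authors aligned reads to the sheep genome Oar v4.0 with HiSAT2 and derived the deposited FPKM with StringTie 1.3.4D. For the annotation and the HiSAT2 version, nothing is given in the sources used here. Count models need reads and were not used, and the depth of each single library is unknown. Values were divided by median-of-ratios size factors and compared as log2(scaled FPKM + 0.1), and a fold change on this scale understates that of low genes. The comparison over all genes used limma 3.58.1 in R 4.3.3 with trend and robust estimation. It was checked on simulated data whose noise was independent between genes and smaller than the spread of the CON ewes. That is an easier setting than these libraries, which share axis 1. Size factors were compared by an exact two-sided permutation test (Python 3.11.15, SciPy 1.17.1). The members, the measures and the lists were chosen with earlier results of these data known. The genes named by ID were the member with the widest gap and that of highest mean level. Planned lists of pathway genes and cell type markers could not be applied to numbered IDs. Alternatives covered the scaling, the pseudocount, the filter, the fit and each library left out. Those without several CON libraries, and the counts of members still lower by 1, were added after the values were seen.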

Additional observations from a re-analysis of the deposited data

Results flagged for a closer look

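In 42 groups of 5 libraries (21 measures reported by ewe, in each feeding group), 2 held a library far from the rest, where chance gives about 2.1. Both were members of low level in which the other TR ewes were listed at 0. In such a group any value above 0 is flagged, so the count from chance does not apply to them. The member at gap rank 4 had 0.0453 scaled FPKM in TR5, and the member at gap rank 32 had 0.168 scaled FPKM in TR2.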

How the results depend on the processing

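The 62 genes that met the rule became 28 on deposited FPKM, 25 with size factors from genes above 10 FPKM, 25 with a pseudocount of 1, 91 with quantile normalization (51 of the 62 among them), 37 with a filter at 1 FPKM and 967 without CON1 and CON4, a setting with fewer ewes to separate. Leaving out 1 library gave 57 to 226, with 226 without CON4, 143 without TR3, 141 without CON1 and 124 without TR5, and 50 to 61 of the 62 were among them. The median difference of the members was -0.95 with a pseudocount of 1, -0.96 without CON2, CON3 and CON5, and between -1.40 and -1.18 when any 1 library was dropped. The difference in log2 size factors (0.19) was -0.030 with genes above 10 FPKM (exact permutation p = 0.42) and 0.15 to 0.24 with 1 library left out, passing without CON1 only (exact permutation p = 0.032); the cause was not tested. The limma count of 1 gene was 0 on deposited FPKM, 2 with a pseudocount of 1, 4725 with array weights (2104 lower) and 0 to 3425 with 1 library left out (3425 without CON4, 1581 of them lower). Genes lower at an unadjusted p under 0.05 (2232) were 1369 on deposited FPKM and 1485 to 2862 with 1 library left out.

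Neither the labels nor the paper pair the ewes by replicate number. Deviations of same-numbered libraries correlated at -0.008 to 0.51, and 1 of 5 TR libraries correlated best with its own number. So few libraries cannot decide whether same-numbered libraries share a factor. With the number as a block, limma called 3726 genes (1766 lower), and 2778 were lower at an unadjusted p under 0.05. Depth cannot be read from FPKM, so how far members under 1 scaled FPKM are limited by few fragments is unknown.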

Other observations

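The numbered IDs of the members were not evenly spread. Of the 62 members, 12 (19.4%) had another member within 10 ID numbers. Among the 122 genes higher in the TR group by the mirrored rule, 25 (20.5%) had another of the 122 so near. A larger set lies near more genes, and the share of genes near the 122 was not taken, so these percentages have unlike base rates. Among the other genes tested, 638 of 14822 (4.30%) lay within 10 numbers of a member. These 638 had a median log2 difference of -0.17, and 61.3% were lower in the TR group, against a median of 0.06 and 45.7% lower among the 14184 farther away. Lower without overlap were 3.61% of the 638 and 1.85% of the 14184. What the order of the numbers stands for is not stated in the labels or the paper, the window of 10 was chosen after the values were seen, and the difference was not tested.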
